A study of Mus musculus with 2 samples.

Results

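The complement genes C1qa, C1qb, C1qc, C3, C3ar1, C5ar1, Cfb, Cfp and Serping1 were chosen by name, and all 9 were found among the 16416 genes of a single-cell expression table of mouse tumors. Complement is a set of proteins that marks and attacks targets in tissue and blood. C1q, built from the chains encoded by C1qa, C1qb and C1qc, binds antibody or altered surfaces and starts the classical pathway. C3 is the central protein that every pathway cleaves, factor B (Cfb) and properdin (Cfp) drive and stabilise the alternative pathway, and C3ar1 and C5ar1 are receptors for the small fragments of C3 and C5. Serping1 encodes the C1 inhibitor. Macrophages are known as a main source of C1q in tissues, whereas the liver makes most of the C3 in blood.

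The cells came from tumors engrafted in S303/7A mice, whose heat shock factor HSF1 has alanine in place of the serines at positions 303 and 307, and from tumors engrafted in wild-type (WT) mice. There was 1 library per genotype, tumors from 4 mice are described as pooled, and sorted live cells with and without CD45 were mixed 5 to 1 before 10x Genomics 3′ end libraries were made. The labels name neither the engrafted tumor line nor the age of the mice. The tumor cells were grafted, so S303/7A names the host and not, as far as the labels say, the tumor cells. With 1 library a genotype the differences have no replicate check, and p-values over cells were not computed.

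The S303/7A library held 4802 cells and the WT library 6654, in 22 deposited clusters (C01 to C22) grouped into 11 classes. Macrophages (MF) comprise clusters C02, C03, C05, C09 and C13, monocytes (Mo) comprise C07, and the Tumor class comprises C01, C04, C08 and C14. All 8 macrophage markers examined were detected in every macrophage cluster of both libraries. The median macrophage had 14040 UMIs (unique molecular identifiers, 1 per captured RNA molecule) in S303/7A and 5388 in WT, and the median monocyte 9020 and 4292. The libraries shared 48 cell barcodes. Levels are given as the mean over cells of UMIs per 10000 UMIs of a cell (CP10K), which makes every level a share of the cell's RNA. A tag is counted once per molecule, so levels carry no gene length term. Ratios are log2 of S303/7A over WT after adding 0.1 CP10K, and each UMI ratio (share of the gene among all UMIs, S303/7A over WT) carries an exact 95% interval that covers counting error only.

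All 3 C1q genes lie side by side on the minus strand of chromosome 4, within 18675 bases (GRCm38, GENCODE M21). C1qb spans chr4:136880129-136886187, C1qc chr4:136889804-136893065 and C1qa chr4:136895917-136898803. The RefSeq promoter table (GRCm38.p6, 250 bases before to 50 after the start of each gene) held 6 of the 9 members, namely C1qb, C1qc, C3, C3ar1, C5ar1 and Cfp. The promoters of C1qb (chr4:136886151-136886450), C1qc (chr4:136892865-136893164) and C3 (chr17:57228087-57228386) are shown, each 5′ to 3′ on the strand of its gene, because C1q and C3 are the members whose levels differed in opposite directions between the libraries. Capitals mark the ETS core GAGGAA (or its reverse complement TTCCTC) of the kind bound by the myeloid factor PU.1, in C1qb and C1qc, and a match to TTGCNNAA, a C/EBP-type motif, in C3.
C1qb: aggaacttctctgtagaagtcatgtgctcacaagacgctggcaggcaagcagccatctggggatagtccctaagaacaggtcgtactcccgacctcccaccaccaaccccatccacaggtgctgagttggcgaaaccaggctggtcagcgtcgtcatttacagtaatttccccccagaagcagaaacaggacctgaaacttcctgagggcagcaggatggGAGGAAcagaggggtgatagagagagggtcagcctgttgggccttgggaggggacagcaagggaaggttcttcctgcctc
C1qc: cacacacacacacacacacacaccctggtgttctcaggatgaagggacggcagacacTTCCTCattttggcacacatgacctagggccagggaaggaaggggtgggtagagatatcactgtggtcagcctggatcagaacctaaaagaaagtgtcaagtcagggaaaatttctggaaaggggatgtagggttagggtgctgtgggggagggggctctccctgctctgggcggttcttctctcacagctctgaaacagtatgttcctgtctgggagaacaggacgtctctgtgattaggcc
C3: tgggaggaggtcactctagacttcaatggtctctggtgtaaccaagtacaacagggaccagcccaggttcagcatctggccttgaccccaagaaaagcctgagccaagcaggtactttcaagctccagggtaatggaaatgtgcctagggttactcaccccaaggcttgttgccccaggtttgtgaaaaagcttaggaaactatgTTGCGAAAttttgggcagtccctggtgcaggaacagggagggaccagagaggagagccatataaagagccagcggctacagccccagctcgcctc

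Both strands of the 6 promoters were searched for 6 motifs. GAGGAA was present in C1qb, C1qc and Cfp, and in 28.3% of 32851 promoters of the same length. TTGCNNAA was present in C3, and in 10.8% of promoters. The heat shock element GAANNTTCNNGAA, to which HSF1 binds, was in none of the 6 and in 0.603% of all promoters. TGCTGAC (a MAF-type site, in 4.67% of promoters), GAAANNGAAA (interferon-stimulated response element, 3.44%) and TTCNNNGAA (gamma-activated site, 8.30%) also had no match in the 6 windows. GAANNTTCNNGAA and TTCNNNGAA share letters and can overlap. A match describes letters in a window, and the absence of one says nothing about binding.

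C1q was found mainly in macrophages. The 3 chains summed averaged 132.3 CP10K in S303/7A macrophages and 88.35 CP10K in WT macrophages. Macrophages held 91.6% of all C1q UMIs in the S303/7A library and 87.1% in the WT library, while making up 43.4% and 29.8% of the cells. Cluster C03 stood highest, at 204.3 CP10K in S303/7A and 157.7 CP10K in WT. It was followed by C13, at 159.2 and 128.6 CP10K, then C05 at 109.0 and 67.88 CP10K, and C02 at 91.18 and 72.25 CP10K. Cluster C09 had 71.46 and 53.01 CP10K, and monocyte cluster C07 had 50.87 and 25.42 CP10K. C05 stood above C02 in S303/7A and below it in WT, and the counting intervals of neighbours did not overlap. In WT the neutrophil cluster C18, with 39 cells, stood between C09 and C07.

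**Figure D1:**
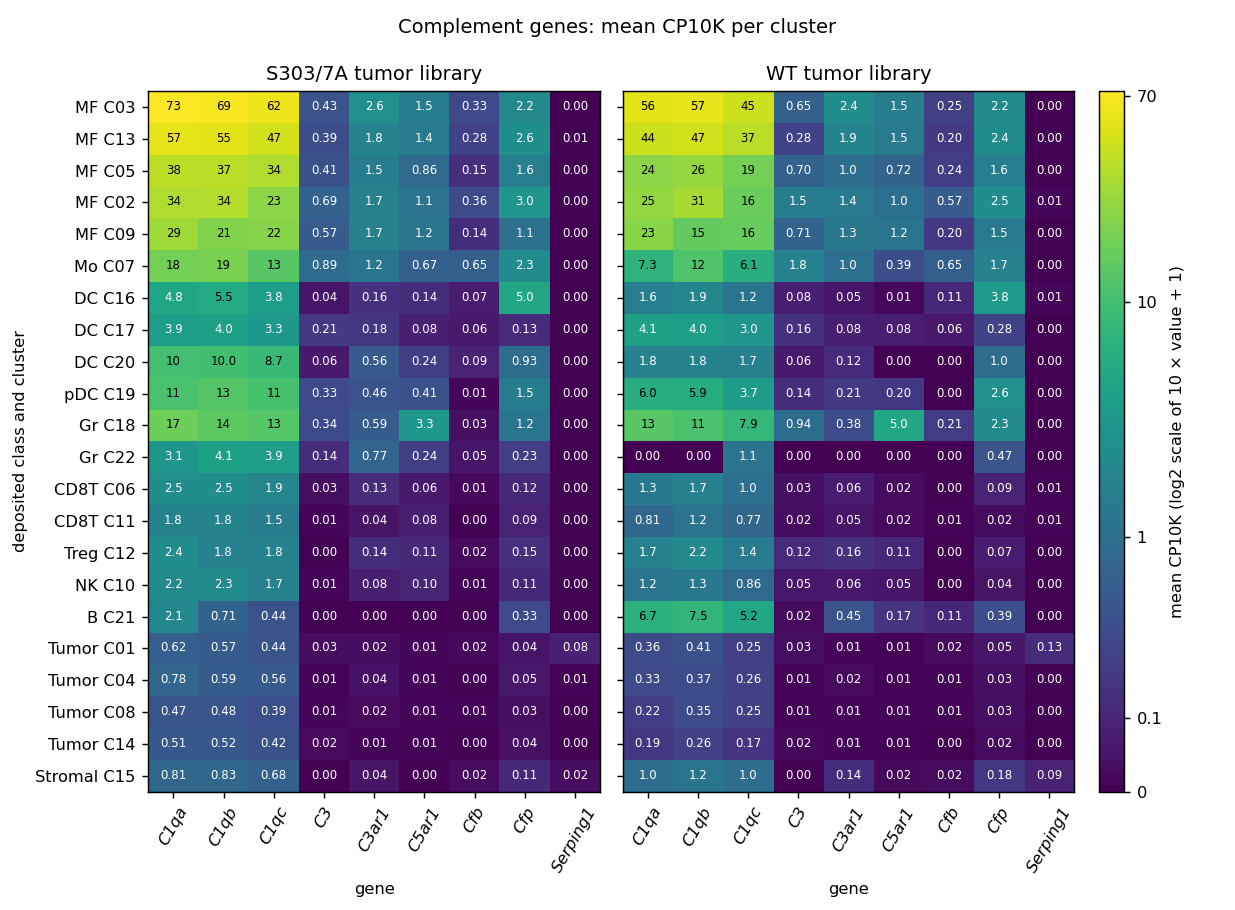
Mean level (CP10K, colour on a log2 scale and printed in each cell) of the 9 complement genes in the 22 deposited clusters, in the S303/7A library on the left and the WT library on the right. The C1q genes are high in the 5 macrophage clusters, C5ar1 peaks in the neutrophil cluster C18, Cfp in the dendritic cluster C16, and Serping1 is at or near 0 outside C01 and C15.

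Within macrophages, every C1q gene stood higher in S303/7A. C1qa averaged 47.86 CP10K in S303/7A and 31.7 CP10K in WT (log2 ratio 0.59, UMI ratio 1.377, 1.362 to 1.392). C1qb averaged 45.51 CP10K in S303/7A and 32.97 CP10K in WT (log2 ratio 0.46, UMI ratio 1.241, 1.228 to 1.254). C1qc averaged 38.95 CP10K in S303/7A and 23.68 CP10K in WT (log2 ratio 0.72, UMI ratio 1.479, 1.461 to 1.497). C1qa and C1qc were thus the 2 members of 8 measured (at least 0.1 CP10K in 1 library) that were past 1.5-fold higher in macrophages, where 1.68% of 7327 genes were. Among all those genes the median log2 ratio was 0.02, and the log2 ratios of C1qa, C1qb and C1qc lay at percentiles 98.4, 96.8 and 99.0.

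The C1q genes were higher in each of the 5 macrophage clusters, with log2 ratios of the summed chains of 0.37 in C03, 0.31 in C13, 0.68 in C05, 0.34 in C02 and 0.43 in C09. All 5 UMI ratio intervals lay above 1 for each chain. The makeup of the class differed too. C02, low in C1q, was 25.3% of S303/7A and 35.4% of WT macrophages, and C03, the highest, was 26.2% and 18.9%. With the 5 clusters weighted equally the class ratio was 0.41, and from summed UMIs, which weigh deep cells more, it was 0.44. In both cases no C1q gene was past 1.5-fold. Within single clusters the 1.5-fold mark was passed by C1qa and C1qc in C05 (2.38% of genes there) and by 0 members in C02 (3.01% of genes), C03 (2.46%), C09 (12.2%) and C13 (2.65%). High doublet scores were found in 26.0% of S303/7A and 51.7% of WT cells of C05, against at most 3.11% in the other 4 clusters. The 7 T cell markers there summed to 11.61 CP10K in S303/7A and 12.62 CP10K in WT (4 higher, 3 lower), and the 4 NK cell markers, all lower, to 1.096 and 3.276 CP10K. Without the cells of high doublet score, C1qa in C05 had a log2 ratio of 0.39 and C1qc of 0.53, short of 1.5-fold, and the summed chains 0.38.

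Markers of macrophages and of monocytes also differed. Of the 8 macrophage markers, 7 were higher in S303/7A macrophages and 1 was lower, with a median log2 ratio of 0.17. By cluster, 6 were higher in C03, 7 in C05 and 8 in C09. In C02 and in C13, 4 were higher and 4 lower. Over the whole class their summed level was 227.3 CP10K in S303/7A and 130.4 CP10K in WT, of which Apoe made 123.0 and 38.76 CP10K. All 4 monocyte markers (Ly6c2, Chil3, Plac8 and Ccr2) were lower, and their summed level was 12.47 CP10K in S303/7A and 50.54 CP10K in WT. Ly6c2, a surface protein of inflammatory monocytes, averaged 2.18 CP10K in S303/7A macrophages and 12.56 CP10K in WT macrophages. The part of these differences, and of the gap in depth, in the C1q values was not tested.

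Monocytes showed a wider C1q gap than any of the 5 macrophage clusters. C1qa averaged 18.38 CP10K in S303/7A monocytes and 7.288 CP10K in WT monocytes (log2 ratio 1.32, UMI ratio 2.91, 2.763 to 3.067). C1qb averaged 19.21 and 11.99 CP10K (log2 ratio 0.68), and C1qc 13.28 and 6.144 CP10K (log2 ratio 1.10). Together with C5ar1, these made 4 of 8 measured members past 1.5-fold higher in monocytes, against 6.14% of 6511 genes. In S303/7A the summed chains were log2 1.00 higher in the mean. The median monocyte had 6.2 CP10K in S303/7A and 4.5 CP10K in WT. Of the 8 macrophage markers, 4 were higher and 4 lower in S303/7A monocytes. Their summed level there was 153.0 CP10K in S303/7A and 180.3 CP10K in WT.

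C1q was split among the cells of C07. At a mark of 20 CP10K, chosen after the values were seen, 41.2% (35.2 to 47.4, Clopper-Pearson) of 267 S303/7A monocytes and 27.9% (24.1 to 32.0) of 519 WT monocytes lay above it. The cells above averaged 118.3 CP10K in S303/7A and 81.52 CP10K in WT. The cells below, whose level is capped by the mark, averaged 3.60 CP10K in S303/7A and 3.67 CP10K in WT. All CD8 T cells, including the few above the mark, averaged 6.49 and 3.47 CP10K. That average is not capped by the mark, so it cannot be set directly against the cells below. Cells between 10 and 40 CP10K, near the mark, were 9.36% of S303/7A and 16.2% of WT monocytes. Cluster C02 was split in the same way, with 73.8% of S303/7A and 63.8% of WT cells above the mark, whereas 99.6% and 100% of C03 cells were above it.

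**Figure D2:**
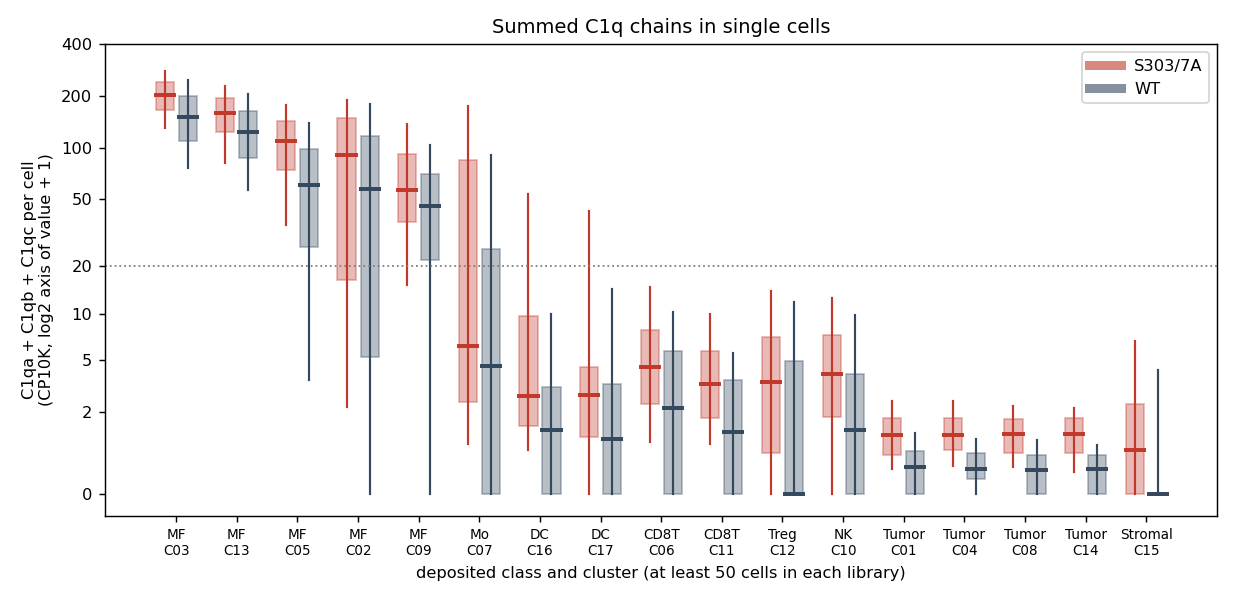
Summed C1qa, C1qb and C1qc per cell (CP10K, log2 axis of the value plus 1) in the 17 clusters with at least 50 cells in each library, S303/7A left of WT in each pair. Thick lines are medians, boxes the middle 50% of cells, thin lines the range from the 10th to the 90th percentile, and the dotted line is 20 CP10K. C03 and C13 are narrow and high, C02 and C07 stretch across the dotted line.

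The C1q-high monocytes also carried more Ms4a7, a macrophage membrane protein, and more C3ar1. Ms4a7 was at 3.45 CP10K above the mark and 0.514 below it in S303/7A, and at 3.56 above and 1.02 below in WT. C3ar1 was at 1.78 above and 0.867 below in S303/7A, and at 1.498 above and 0.823 below in WT. Chil3, a monocyte marker, ran the other way, at 0.492 above and 5.26 below in S303/7A and at 1.23 above and 4.14 below in WT. C3 was at 0.906 above and 0.885 below in S303/7A and at 1.49 above and 1.89 below in WT. High doublet scores were found in 1 of the 110 S303/7A monocytes above the mark and in 0 of the 145 WT monocytes above it.

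With every cell thinned to 1000 UMIs, the share of cells holding all 3 chains still differed. It was 77.9% in S303/7A macrophages and 61.0% in WT macrophages, against 92.2% and 75.1% unthinned. In monocytes it was 33.0% (27.4 to 39.0) in S303/7A and 15.1% (12.1 to 18.4) in WT, against 54.7% and 30.4% unthinned. In CD8 T cells, which should lack C1q, it was 2.11% and 0.289%.

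The balance of the 3 chains also differed between the libraries. C1q protein holds its chains in equal numbers. Among C1q UMIs of macrophages, C1qb made up 34.6% in S303/7A and 37.8% in WT, C1qa 35.8% and 35.2%, and C1qc 29.6% and 27.1%. In monocytes C1qb was 36.9% of C1q UMIs in S303/7A and 46.5% in WT. Over the 20 clusters with at least 100 C1q UMIs in each library, the C1qb share was lower in S303/7A in 17 and higher in 3 (C09, C15 and C17). The intervals did not overlap in 7 of the 17 and overlapped in all 3 of the others. C1qc ran the other way, higher in 17 clusters and lower in 3. The clusters come from the same 2 libraries and are not independent points.

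**Figure D3:**
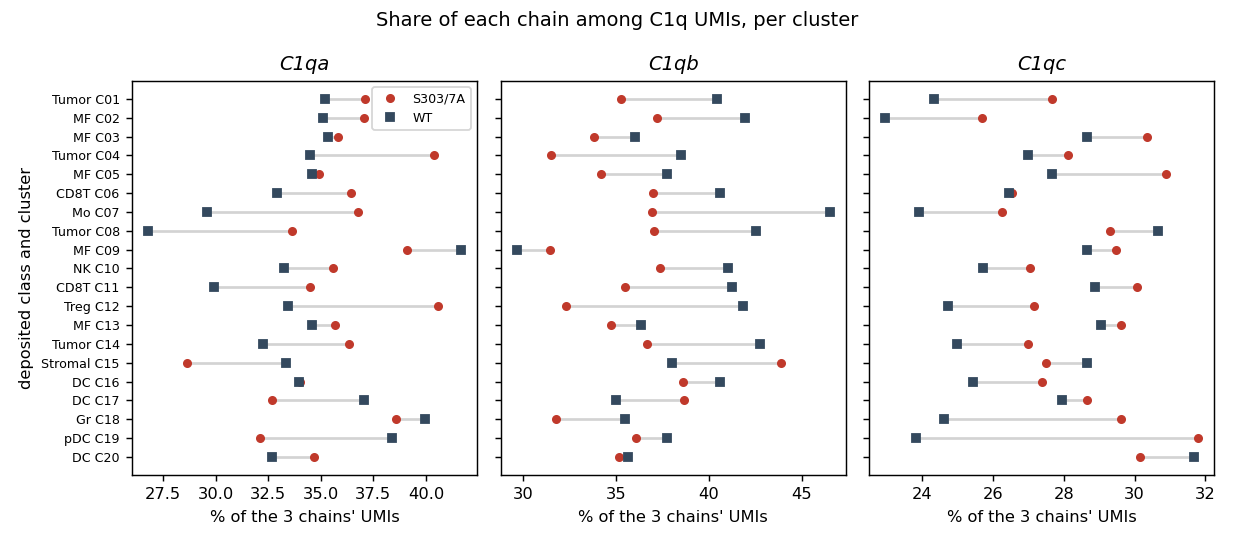
Share (%) of each chain gene among the UMIs of C1qa, C1qb and C1qc, for the 20 clusters with at least 100 such UMIs in each library, with S303/7A as red circles and WT as dark squares. The C1qb circles lie left of the squares in 17 clusters, and the widest gap is in monocyte cluster C07 (36.9% and 46.5%).

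Outside myeloid cells the C1q signal was low, and its direction differed between classes, as did that of macrophage genes. CD8 T cells had 6.49 CP10K of summed C1q in S303/7A and 3.47 CP10K in WT, or 4.91% and 3.92% of the macrophage level of their own library. Apoe, a lipid carrier abundant in macrophages, stood at 5.18 CP10K in S303/7A and 1.46 CP10K in WT in the same cells, or 4.21% and 3.77% of its macrophage level. All 8 macrophage markers were higher in S303/7A CD8 T cells, with a summed level of 9.84 CP10K in S303/7A and 3.73 CP10K in WT. NK cells had 6.24 CP10K of C1q in S303/7A and 3.36 CP10K in WT, and Apoe there was at 5.20 and 1.08 CP10K. Of the 8 macrophage markers, 5 were higher and 3 lower in S303/7A NK cells, at a summed 9.06 and 3.29 CP10K. Tumor cells had C1q at 1.56 CP10K in S303/7A and 0.923 CP10K in WT, at a median depth of 28130 and 25530 UMIs, and all 8 macrophage markers were again higher, at a summed 3.33 and 1.54 CP10K. In the Stromal class C1q stood lower, at 2.32 CP10K in S303/7A and 3.13 CP10K in WT (log2 ratio -0.41, and 0.23 without cells of high doublet score), and 7 of 8 macrophage markers were lower. In Treg it was at 5.94 and 5.32 CP10K, with C1qb lower at 1.77 CP10K in S303/7A and 2.23 CP10K in WT, and 5 of 8 macrophage markers higher.

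In these classes the members past 1.5-fold higher were C1qa, C1qb and C1qc of 5 measured members in NK cells (3.98% of genes), the same 3 of 5 in CD8 T cells (1.78%), and C1qa and C1qc of 3 in tumor cells (0.674%). In the downward direction 0 members passed in NK cells (5.89% of genes), CD8 T cells (2.08%) and tumor cells (1.64%). In regulatory T cells (Treg), Cfp was the 1 of 7 past the mark upward (7.8% of genes), on 11 UMIs in S303/7A and 5 in WT. C3 was the 1 of 7 past it downward there (12.3%), on 1 UMI and 4. After thinning, Cfp in Treg turned to a log2 ratio of -0.7. Free RNA was not measured directly, and its part in these levels was not tested.

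Dendritic cells had C1q at 15.25 CP10K in S303/7A and 7.363 CP10K in WT. Cluster C16 had 14.12 CP10K in S303/7A and 4.744 CP10K in WT (log2 ratio 1.55), and C20 had 28.72 and 5.247 CP10K in only 35 and 27 cells. Cluster C17 had 11.27 and 11.11 CP10K (log2 ratio 0.02). Of C16 cells 20 of 117 in S303/7A and 7 of 107 in WT were above 20 CP10K. Those 20 cells had a median of 19240 UMIs, against 12640 in the other 97, and 2 of them had a high doublet score. In dendritic cells as a class, 5 of 7 measured members (the 3 C1q genes, C3ar1 and C5ar1) were past 1.5-fold higher, beside 2.65% of genes, and 0 were past it downward (4.29%). Of the macrophage markers 6 of 8 were higher there, at a summed 21.38 CP10K in S303/7A and 14.84 CP10K in WT, and 3 of 4 monocyte markers were lower, at 8.68 and 29.17 CP10K. Their part in these values was not tested. C5ar1 rested on 62 UMIs in S303/7A and 9 in WT, and 1 S303/7A cell held 14. In S303/7A C16 it was at 0.635 CP10K in the 20 cells above 20 CP10K of C1q and at 0.0340 CP10K in the other 97. In WT C16 it was at 0 CP10K in the 7 cells above and at 0.0152 CP10K in the other 100. After thinning, 0 dendritic cells of either library held a C5ar1 UMI.

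A few cells set the C1q level of some small clusters. In WT B cells the mean was 19.38 CP10K and the median 0, and 8 of 47 cells held 20 CP10K or more. These 8 averaged 107.7 CP10K, with a median of 7680 UMIs against 1857 in the other 39. In the neutrophil cluster C18 the mean was 44.07 CP10K in S303/7A and 32.05 CP10K in WT. There 12 of 41 S303/7A cells and 11 of 39 WT cells were above the mark, with a median of 11850 and 7390 UMIs against 1176 and 947.5 in the rest.

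C3 stood lower in S303/7A macrophages and monocytes. It averaged 0.501 CP10K in S303/7A macrophages and 0.9499 CP10K in WT macrophages (log2 ratio -0.80, UMI ratio 0.548, 0.505 to 0.595). It averaged 0.894 CP10K in S303/7A monocytes and 1.78 CP10K in WT monocytes (log2 ratio -0.92, UMI ratio 0.514, 0.436 to 0.606). C3 was the only measured member past 1.5-fold lower in macrophages (2.8% of genes) and in monocytes (4.36%). Its log2 ratio lay at percentile 1.28 of all genes in macrophages and 1.04 in monocytes. With the macrophage clusters weighted equally it was -0.54, short of 1.5-fold, and with a pseudocount of 1 it was -0.38 in macrophages and -0.55 in monocytes.

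The C3 difference was uneven among macrophage clusters. C3 averaged 0.690 CP10K in S303/7A and 1.52 CP10K in WT in C02 (log2 ratio -1.04), and this was the macrophage cluster highest in C3 in both libraries. The log2 ratio was -0.64 in C05, -0.49 in C03 and -0.28 in C09, where 21 and 35 UMIs gave an interval that reached 1. In cluster C13 the direction was the other one, at 0.392 CP10K in S303/7A and 0.282 CP10K in WT (log2 ratio 0.37, UMI ratio 1.39, 1.01 to 1.97). C3 was the 1 member of 8 past 1.5-fold lower in C02 (5.03% of genes) and in C05 (2.05%), and 0 members were so in C03 (2.14%), C09 (11.1%) and C13 (1.8%). Without cells of high doublet score the C05 log2 ratio of C3 was -0.38, short of 1.5-fold. No difference between clusters was tested. C3 was not carried by single cells, since the top cell held 1.60% of the 1379 macrophage UMIs in S303/7A and 0.984% of the 1016 in WT.

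After thinning, C3 was found in 4.55% (3.69 to 5.53) of S303/7A macrophages and 8.70% (7.46 to 10.1) of WT macrophages. Unthinned, the shares were 29.9% and 29.7%. In monocytes the thinned shares were 8.24% (5.24 to 12.2) in S303/7A and 14.1% (11.2 to 17.4) in WT, and in CD8 T cells 0.162% and 0.289%. Tumor cells held C3 at 0.0181 CP10K in S303/7A and 0.0184 CP10K in WT, on 43 and 93 UMIs.

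Cfb, the protease subunit of the alternative convertase, followed C3 in where it was highest but not throughout in its difference. Cfb averaged 0.646 CP10K in S303/7A monocytes and 0.646 CP10K in WT monocytes (UMI ratio 1.13, 0.902 to 1.42). In C02 it averaged 0.364 CP10K in S303/7A and 0.567 CP10K in WT (UMI ratio 0.683, 0.564 to 0.828), and in C05 0.148 and 0.241 CP10K (0.650, 0.495 to 0.857). In C03 and C13 the values ran the other way, with log2 ratios of 0.33 in each and intervals that held 1. Over the whole class Cfb stood at 0.268 CP10K in S303/7A and 0.346 CP10K in WT. Cfb (chr17:34856374-34862518) overlaps Gm20547 and Mir6972 on the same strand, so its counts are uncertain where reads could be shared.

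Properdin, Cfp, was highest outside macrophages, in dendritic cluster C16, at 4.99 CP10K in S303/7A and 3.79 CP10K in WT (log2 ratio 0.39, UMI ratio 1.362, 1.196 to 1.554). Macrophages had 2.18 and 2.05 CP10K (UMI ratio 1.01, 0.964 to 1.06), and monocytes 2.29 and 1.67 CP10K (1.40, 1.23 to 1.59). Plasmacytoid dendritic cells, with 32 cells in S303/7A and 33 in WT, had 1.55 and 2.64 CP10K. In C16 cells above and below 20 CP10K of C1q, Cfp was at 3.34 and 5.33 CP10K in S303/7A and, the other way round, at 5.31 (7 cells) and 3.68 CP10K in WT.

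The receptors differed in where they peaked. C3ar1 was highest in C03, at 2.62 CP10K in S303/7A and 2.44 CP10K in WT (UMI ratio 1.05, 0.961 to 1.16). In macrophages as a class it averaged 1.89 CP10K in S303/7A and 1.55 CP10K in WT (log2 ratio 0.27), and the gap was widest in C05, at 1.49 and 0.975 CP10K (log2 ratio 0.56, UMI ratio 1.47, 1.31 to 1.66). Without cells of high doublet score the C05 log2 ratio was 0.29. Unthinned, 77.5% of S303/7A and 48.4% of WT macrophages held a C3ar1 UMI, but at 1000 UMIs a cell the shares were 16.7% (15.2 to 18.4) and 15.1% (13.5 to 16.8).

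In dendritic cells C3ar1 was at 0.228 CP10K in S303/7A and 0.0686 CP10K in WT (log2 ratio 0.96, UMI ratio 2.92, 1.76 to 5.12). In S303/7A C16 it was at 0.595 CP10K in the 20 cells above 20 CP10K of C1q and at 0.0693 CP10K in the other 97, and in WT at 0.199 CP10K in 7 cells and 0.0352 CP10K in 100. In the Stromal class it was at 0.0408 and 0.138 CP10K, on 2 UMIs in S303/7A and 20 in WT, and was there the 1 member of 5 past 1.5-fold lower (23.9% of genes), with 0 past it upward (12.6%). After thinning its log2 ratio there was 0.89, on 1 cell with a UMI in S303/7A and 0 in WT.

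C5ar1 was highest in the neutrophil cluster C18, at 3.26 CP10K in S303/7A and 4.96 CP10K in WT, from 41 and 39 cells. The C18 cells below 20 CP10K of C1q held more of it, 3.87 CP10K in S303/7A and 5.99 CP10K in WT, than those above, at 1.79 and 2.32. Among macrophages it averaged 1.198 CP10K in S303/7A and 1.12 CP10K in WT (log2 ratio 0.09). In monocytes it was at 0.673 and 0.394 CP10K (log2 ratio 0.65, UMI ratio 1.59, 1.22 to 2.09). After thinning, C5ar1 was found in 4.12% (2.07 to 7.25) of S303/7A and 3.28% (1.92 to 5.20) of WT monocytes, a difference not detectable at that depth. The gene lies at chr7:16246743-16259540, with C5ar2, the second C5a receptor, 2588 bases away.

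**Figure D4:**
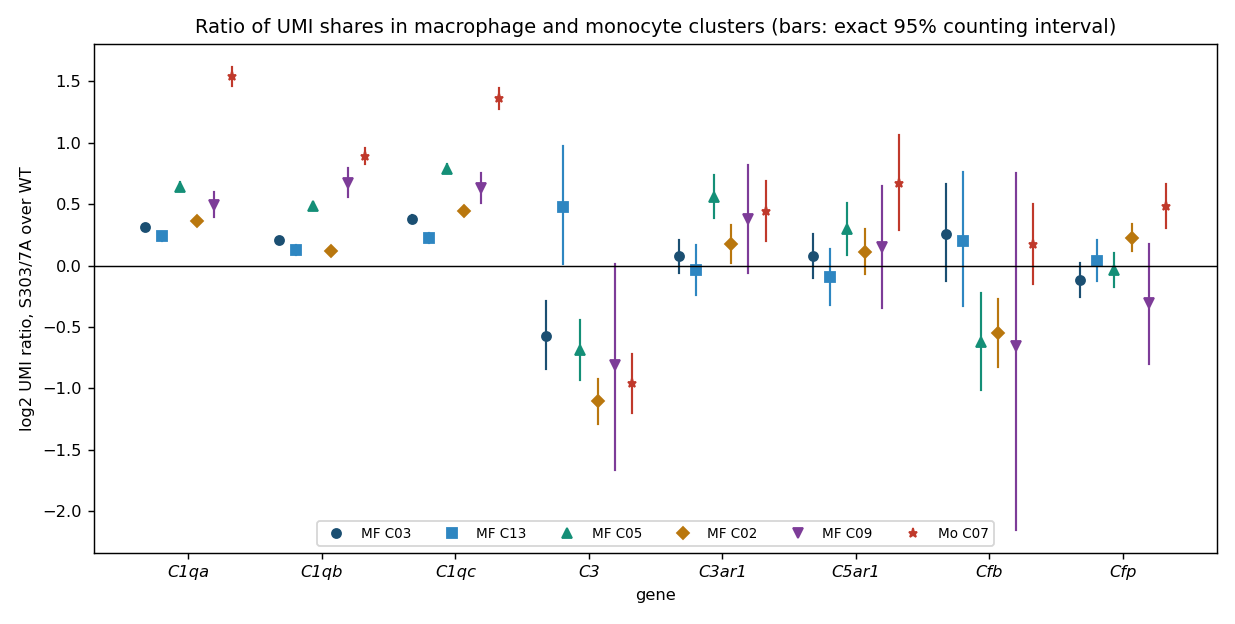
Log2 of the UMI ratio, S303/7A over WT, for 8 members in the 5 macrophage clusters and monocyte cluster C07, with exact 95% counting intervals as bars and a line at no difference. The C1q points lie above the line in all 6 clusters, the C3 points lie below it except in C13, and most Cfp and C5ar1 intervals lie near it.

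Serping1 was found mainly in the Tumor class, which held 78.3% of its UMIs in S303/7A and 86.1% in WT. It averaged 0.0809 CP10K in S303/7A and 0.132 CP10K in WT in tumor cluster C01, on 60 and 194 UMIs, and 0.0245 and 0.0949 CP10K in the Stromal cluster C15. In C15, 1 cell held 6 of 7 UMIs in S303/7A and 1 cell 13 of 21 in WT, and without them the means were 0.00475 and 0.0330 CP10K. No other cluster exceeded 0.0121 CP10K in either library. In S303/7A C01, 1 cell held 41 of the 60 UMIs, and without it the mean was 0.0301 CP10K. In WT C01, 1 cell held 53 of 194, and without it the mean was 0.105 CP10K. Among cells of C01 in the deposited copy number group CNV1, 6 of 32 S303/7A cells and 10 of 105 WT cells held Serping1. These few cells held 58 of the 60 UMIs of C01 in S303/7A and 120 of 194 in WT, and the mean in CNV1 was higher in S303/7A, at 0.939 CP10K against 0.592 CP10K in WT. In CNV2 it was at 0.00628 and 0.116 CP10K, on 2 UMIs in S303/7A and 55 in WT. In CNV3 a UMI was found in 0 of 153 S303/7A cells, which by the 3-count rule allows a share of cells with a UMI of up to 1.96%, and in 13 of 412 WT cells. In the Stromal cluster C15 all 7 UMIs in S303/7A and all 21 in WT were likewise in CNV1, among 60 and 54 cells.

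Across 20 clusters in 2 libraries (40 points, 6108 genes with at least 0.5 CP10K somewhere), the genes closest to each member by Pearson correlation of log levels were listed as a description. The points share libraries and depth. C1qa and C1qc were each other's closest (r 0.997), C1qb was closest to C1qc (0.995), and Fam213b followed for all 3 (0.976 for C1qa). C3ar1 was closest to C1qc (0.964). C3 was closest to Cmklr1 (0.930), Clec4a3 (0.926) and Klra2 (0.922), and its r with Cfb was 0.887. C5ar1 was closest to Slc11a1 (0.957). Within WT alone, 3 of the first 3 genes were the same for C1qa and C5ar1, and 0 of 3 for C3. The WT points are part of the 40, so some agreement is built in. Serping1 was too low to enter.

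Other complement genes were taken from a list of 49, of which 33 were in the table and 22 reached 0.1 CP10K in at least 1 class. In macrophages 12 were measured, with a median log2 ratio of 0.23. Members had a median of 0.18 and all genes 0.02. Fcna, which encodes ficolin A of the lectin pathway, averaged 0.202 CP10K in S303/7A and 0.0493 CP10K in WT (log2 ratio 1.02, UMI ratio 4.44, 3.32 to 6.06). Lrp1, an uptake receptor, averaged 1.51 CP10K in S303/7A and 0.961 CP10K in WT (UMI ratio 1.55, 1.45 to 1.66).

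Fcna stood higher in S303/7A in C03, C05, C09 and C13, at 0.193 to 0.327 CP10K against 0.0512 to 0.0926 CP10K in WT, but in C02 it was at 0.00791 and 0.00774 CP10K. C4b, the classical pathway's partner of C2, was at 0.374 CP10K in S303/7A and 0.278 CP10K in WT macrophages (UMI ratio 1.11, 0.981 to 1.26). Monocytes had Itgax, a subunit of complement receptor 4, at 0.588 CP10K in S303/7A and 0.288 CP10K in WT (UMI ratio 1.999, 1.504 to 2.68).

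The proteases that C1q works with were found in another compartment. C1ra and C1s1, which encode C1r and C1s, were highest in tumor cells among the 8 classes compared, at 0.116 CP10K in S303/7A and 0.140 CP10K in WT for C1ra, and 0.185 and 0.143 CP10K for C1s1. Within the Tumor class they lay mainly in C01, where C1s1 was at 0.402 and 0.337 CP10K, against at most 0.0459 CP10K in the other 3 tumor clusters. In macrophages C1s1 was at 0.00462 and 0.00487 CP10K. Tumor cells were also the class highest in Colec12, a scavenger collectin, at 1.03 CP10K in S303/7A and 0.778 CP10K in WT, and in Lrp1, at 3.37 and 2.77 CP10K. Clusterin (Clu), a regulator of the terminal complex, was highest in the Stromal class, at 13.87 CP10K in S303/7A and 6.52 CP10K in WT (UMI ratio 1.39, 1.10 to 1.75), on 179 and 134 UMIs.

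**Figure D5:**
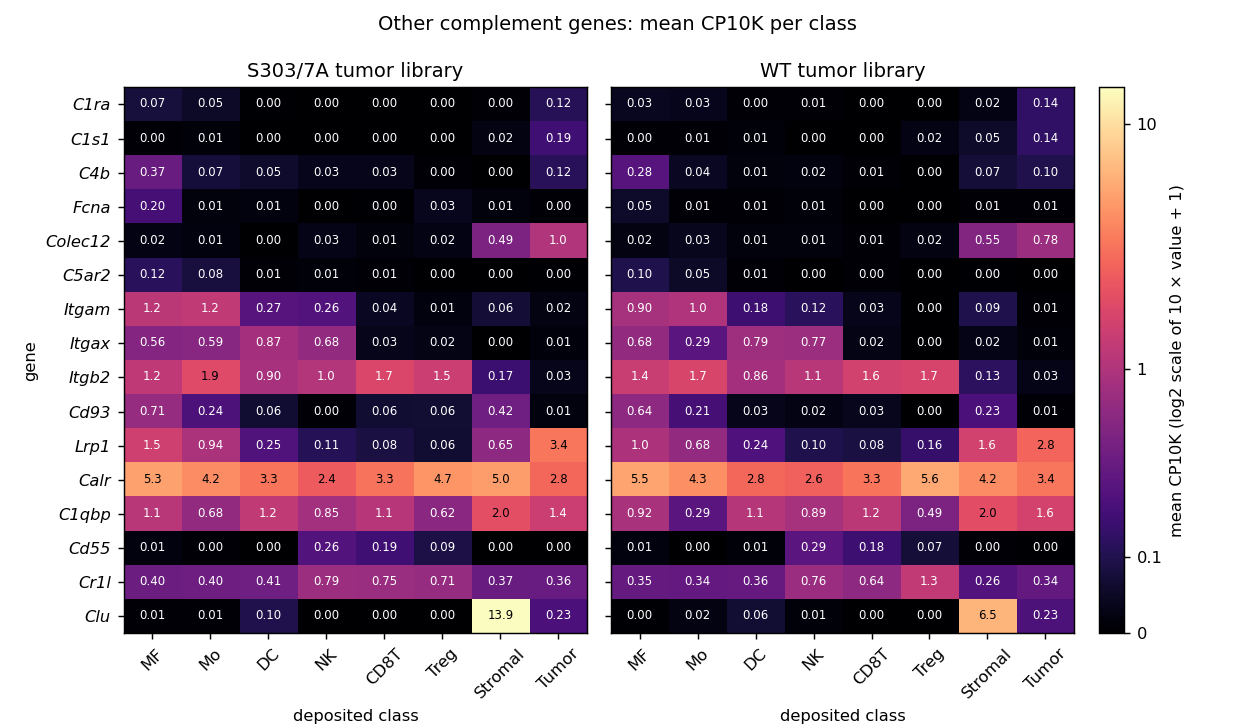
Mean level (CP10K, colour on a log2 scale and printed in each cell) of 16 other complement genes in the 8 classes with at least 50 cells in each library, S303/7A on the left and WT on the right. C1ra, C1s1, Colec12 and Lrp1 are highest in tumor cells, Fcna and C4b in macrophages, and Clu in stromal cells.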

How the data were processed

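Single-cell 3′ RNA libraries of 2 tumor samples, 1 per genotype, were used, with 11456 cells and 16416 genes. The deposited values are natural log values: the log of 1 plus UMIs per 100000. The authors deposited UMI and gene counts for each cell, its mitochondrial percent, and embedding coordinates, a unitless score that was not used. Cell Ranger and Seurat 3.0 are named per the submitters' processing notes, and how cells were filtered and clustered is not given in the sources used here. Deposited classes and clusters were used throughout.

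Multiplying back gave whole UMIs (99.9% of nonzero values within 0.1 UMI). From these came mean CP10K, log2 ratios with a pseudocount of 0.1 (which understates the difference of low genes), UMI ratios and shares with exact 95% intervals, in the 8 classes and 17 clusters with at least 50 cells in each library. A gene was measured if it had at least 0.1 CP10K in 1 library. A measured gene was called past 1.5-fold if its log2 ratio reached log2 of 1.5 in either direction. The log2 ratio and the 1.5-fold call were tested on simulated Poisson counts for macrophages, and the UMI ratio interval on simulated Poisson pairs. Shares of cells and the other classes and clusters were not simulated. Thinning to 1000 UMIs left out 63 S303/7A and 199 WT cells. Scrublet in scanpy 1.11.5 marked 0.0833% and 0.827% of cells by its own threshold, so the 215 and 361 highest-scoring cells were left out as an alternative, and none from the main values. PCR and sampling of mice are not covered by any interval. Promoters came from RefSeq and positions from GENCODE M21. Python 3.11.15, numpy 2.4.6, scipy 1.17.1 and pandas 2.3.3 were used. The members, gene lists, markers and alternatives were chosen with earlier results of these data known. The genes named are the members, and list genes at 0.1 CP10K or more in a class; some results are not reported here.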

Additional observations from a re-analysis of the deposited data

Results flagged for a closer look

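C3ar1 had opposite directions in 2 classes. Its log2 ratio, S303/7A over WT, was 0.96 in dendritic cells (UMI ratio 2.92, 1.76 to 5.12) and -0.76 in the Stromal class (UMI ratio 0.104, 0.0118 to 0.427), which rests on 2 UMIs in S303/7A and 20 in WT. After thinning to 1000 UMIs a cell, the Stromal value turned to 0.89, on 1 cell with a UMI in S303/7A and 0 in WT. In the Stromal class 23.9% of all genes were past 1.5-fold lower. The difference between the classes was not tested.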

How the results depend on the processing

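No paired analysis was possible because there is 1 library per genotype, and no replicate could be left out. Of 751 log2 ratios recomputed for 101 results under other settings, 710 kept their sign and 591 stayed within counting error. Of the 269 for results past 1.5-fold, 190 stayed within counting error and 76 moved beyond it, and 266 kept their sign. The 3 that did not were seen after thinning: C5ar1 in dendritic cells at 0.0, with no UMI left in either library, Cfp in Treg at -0.7, on 1 cell with a UMI in S303/7A and 3 in WT, and C3ar1 in Stromal at 0.89, on 1 cell and 0. The summed C1q ratio in macrophages (0.58) was 0.44 from summed UMIs, 0.54 with thinned cells or without the shallowest 10% of cells, 0.55 without high doublet scores, 0.6 over non-ribosomal UMIs, 0.41 with clusters weighted equally and 0.52 without C09. It was 0.57 less the level in CD8 T cells, a setting added after the data were seen. In monocytes (1.00) it was 1.22 from summed UMIs and 1.1 over non-ribosomal UMIs. The C3 ratio in macrophages (-0.80) was -0.38 with a pseudocount of 1 and -0.54 with clusters weighted equally, and in monocytes (-0.92) -0.55 with a pseudocount of 1. The count of members higher in macrophages (2) was 1 with a pseudocount of 1, without the shallowest cells, without doublets, without C09 or less the level in CD8 T cells, and 0 from summed UMIs, with clusters weighted equally or at a fold of 2. The count lower (1) was 0 with a pseudocount of 1, with clusters weighted equally or at a fold of 2. In monocytes the count higher (4) was 2 with thinned cells or at a fold of 2, and the count lower (1) was 0 with a pseudocount of 1 or at a fold of 2. Depth limits C3, Cfb, the receptors and Serping1 in lymphocytes and stromal cells, with at most 56 UMIs for any of them in a class of either library.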

Other observations

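Classical pathway components were divided among cell types in both libraries. Tumor cluster C01 held C1ra at 0.249 CP10K in S303/7A and 0.333 CP10K in WT and C4b at 0.191 and 0.210 CP10K, while C1q there was at 1.63 and 1.02 CP10K. Macrophage cluster C03 held C1q at 204.3 and 157.7 CP10K and C4b at 0.622 and 0.644 CP10K, but C1s1 at 0 and 0.00828 CP10K. The inhibitor gene Serping1 was in C01, mainly in its CNV1 cells, which held 58 of 60 UMIs in S303/7A and 120 of 194 in WT. In C03 Serping1 was at 0.00119 and 0 CP10K.

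Cd93, once described as a receptor for C1q, was highest in macrophages, at 0.707 CP10K in S303/7A and 0.642 CP10K in WT. In the Stromal class it was at 0.416 and 0.229 CP10K (UMI ratio 2.32, 1.65 to 3.29), on 114 and 51 UMIs. C5ar2 was at 0.124 CP10K in S303/7A and 0.0956 CP10K in WT macrophages.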
